A study of Homo sapiens with 18 samples.

Results

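The genes described here are 38 genes of glycolysis and of the transcriptional response to low oxygen, taken by gene symbol from a fixed list out of the 27968 genes in the deposited tables. They comprise 17 glycolytic enzymes and 21 other members, namely 6 transporters and flux regulators, 13 other targets of the hypoxia-inducible factors (HIFs) and 2 HIF alpha subunits. The members were taken by symbol from a list chosen with earlier results of these data known, and all 38 passed the filter on low counts in every fit. RNA-seq was made from cells in which BLM, a RecQ family DNA helicase that is lost in Bloom syndrome, had been targeted with small interfering RNAs. The 18 libraries form 6 groups of 3. A549, a lung adenocarcinoma line, had been transfected with BLM siRNA1, siRNA2 or siRNA3 or with a control siRNA. MDA-MB-231, a triple-negative breast cancer line, had been transfected with BLM siRNA1 or a control siRNA. All groups carried an siRNA and were grown in DMEM with serum. The sources used here give neither the oxygen level nor the siRNA sequences, or the time after transfection. The protocol names both 2D and 3D culture without saying which library came from which, so a difference in culture between groups cannot be seen from the labels. They also do not state whether replicate libraries are independent cultures, and p-values therefore reflect library-to-library spread alone, possibly technical.

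Levels are given as TPM, a length-normalised unit, which the authors derived from estimated counts and gene length. BLM had 0.58, 0.60 and 0.57 TPM in A549 siRNA1, 4.47, 4.61 and 4.87 TPM in siRNA2, 2.82, 2.62 and 2.46 TPM in siRNA3, and 33.2, 32.6 and 30.2 TPM in A549 control. In MDA-MB-231, BLM had 2.67, 2.50 and 2.61 TPM with siRNA1 and 15.8, 16.5 and 17.7 TPM with control. Mean BLM was thus 1.82%, 14.5% and 8.23% of A549 control with siRNA1, siRNA2 and siRNA3, and 15.6% of control in MDA-MB-231, and each library went with its label. Library totals were 30143047 to 40328208 estimated counts. Replicate 3 of A549 siRNA3 stood apart, its genes deviating from the group mean with an SD of 0.251 on the log2 scale, against 0.0897 to 0.167 in the other 17 libraries. Across genes, its deviations had a Spearman correlation of -0.685 with gene length, against 0.587 and 0.507 in replicates 1 and 2 of that group. Each deviation is taken from the mean of the same group, so these opposite signs are in part forced and not independent. Proliferation genes and the p53 target CDKN1A moved with the siRNAs. The summed level of MKI67, TOP2A and CCNB1 was 50.1 to 53.1 TPM in A549 siRNA1, 632 to 647 TPM in siRNA2, 427 to 578 TPM in siRNA3 and 948 to 1040 TPM in control, and in MDA-MB-231 286 to 317 TPM with siRNA1 and 959 to 987 TPM with control. The summed level of CDKN1A, MDM2 and BTG2 was 1341 to 1351 TPM in A549 siRNA1, 272 to 275 TPM in siRNA2, 196 to 223 TPM in siRNA3 and 91.9 to 99.1 TPM in control, and in MDA-MB-231 551 to 644 TPM with siRNA1 and 237 to 265 TPM with control. In MDA-MB-231 this sum was carried by CDKN1A, since MDM2 was 18.2 to 20.8 TPM with siRNA1 and 25.3 to 29.8 TPM with control. The part of these shifts in the results that follow was not tested. The lung lineage factor NKX2-1 was at most 0.03 TPM in every A549 library and 1.98 to 2.77 TPM with siRNA1 and 6.15 to 7.35 TPM with control in MDA-MB-231, a breast line. In contrast, AKR1B10, an aldo-keto reductase abundant in this line, averaged 2675 ± 190 TPM in A549 control (SD, n = 3) and 0.757 ± 0.102 TPM in MDA-MB-231 control. PTPRC, the leukocyte marker, was at most 0.01 TPM in A549, and of 3 endothelial markers none reached 1 TPM there. Single markers of other cell types were low and differed between groups. CD14, a monocyte marker, averaged 5.06, 7.67, 1.77 and 5.03 TPM in A549 siRNA1, siRNA2, siRNA3 and control, and 12.7 TPM with siRNA1 and 8.83 TPM with control in MDA-MB-231. A summed list of 5 fibroblast genes, mostly COL1A1, was 9.22 to 11.1 TPM in A549 siRNA1, 13.8 to 14.8 TPM in siRNA2, 5.34 to 9.24 TPM in siRNA3 and 1.57 to 1.67 TPM in control, and in MDA-MB-231 8.47 to 8.56 TPM with siRNA1 and 6.03 to 6.52 TPM with control. The endothelial marker PECAM1 was 2.1 to 2.47 TPM with siRNA1 and 3.29 to 4.49 TPM with control in MDA-MB-231. Their part in the results was not tested either.

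Glycolysis converts glucose to pyruvate in the cytosol, and lactate dehydrogenase then reduces pyruvate to lactate. HIF1A and EPAS1 encode the oxygen-regulated alpha subunits of the HIF factors. Prolyl hydroxylases of the EGLN family mark the alpha subunits for destruction by the VHL ubiquitin ligase when oxygen is present, and without oxygen the stabilised factors bind the core letters ACGTG or GCGTG in promoters and enhancers. Tumour cells are known for high expression of glucose transporters, glycolytic enzymes and the lactate exporter SLC16A3. HIF alpha is controlled mainly at the protein level, which RNA-seq does not measure.

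To show where such core letters lie in members whose levels changed, the 250 bases before the start site of 5 promoters are printed, from RefSeq on GRCh38.p14. CA9, ADM, EGLN3 and ANKRD37 are HIF targets that rose with siRNA1 in MDA-MB-231, and PGK1 is the glycolytic enzyme with the lowest log2 fold change in both lines with siRNA1. Sequences run 5′ to 3′ on the strand of the gene, and capitals mark ACGTG or GCGTG on either strand, so that CACGT and CACGC count as their reverse complements. CA9 lies at chr9:35673678-35673927 on the plus strand, ADM at chr11:10304823-10305072 on the plus strand, EGLN3 at chr14:33951075-33951324 on the minus strand, ANKRD37 at chr4:185396591-185396840 on the plus strand and PGK1 at chrX:78103998-78104247 on the plus strand.
CA9: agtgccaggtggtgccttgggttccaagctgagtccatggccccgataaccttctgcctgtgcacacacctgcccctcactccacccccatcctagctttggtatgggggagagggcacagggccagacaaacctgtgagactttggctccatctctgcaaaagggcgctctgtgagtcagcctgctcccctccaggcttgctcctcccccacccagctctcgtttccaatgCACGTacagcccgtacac
ADM: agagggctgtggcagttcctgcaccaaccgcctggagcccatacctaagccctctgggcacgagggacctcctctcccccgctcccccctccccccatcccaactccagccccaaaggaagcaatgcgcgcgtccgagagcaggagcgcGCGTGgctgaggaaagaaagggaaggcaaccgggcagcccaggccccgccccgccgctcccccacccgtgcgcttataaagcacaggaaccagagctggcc
EGLN3: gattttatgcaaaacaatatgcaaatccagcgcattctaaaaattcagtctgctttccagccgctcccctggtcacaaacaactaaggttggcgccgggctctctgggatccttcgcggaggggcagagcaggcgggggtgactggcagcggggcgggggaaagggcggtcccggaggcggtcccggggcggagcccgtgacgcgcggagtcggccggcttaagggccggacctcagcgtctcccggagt
ANKRD37: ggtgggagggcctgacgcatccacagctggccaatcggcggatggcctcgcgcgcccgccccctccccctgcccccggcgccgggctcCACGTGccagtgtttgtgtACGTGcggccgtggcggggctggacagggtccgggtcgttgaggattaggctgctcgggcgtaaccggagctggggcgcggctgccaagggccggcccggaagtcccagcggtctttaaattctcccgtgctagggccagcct
PGK1: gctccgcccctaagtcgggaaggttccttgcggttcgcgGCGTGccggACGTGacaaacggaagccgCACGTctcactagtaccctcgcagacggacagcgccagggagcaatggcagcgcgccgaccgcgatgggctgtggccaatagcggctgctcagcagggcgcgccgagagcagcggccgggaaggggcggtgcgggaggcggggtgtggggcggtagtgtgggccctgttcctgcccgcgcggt
The PGK1 window held 3 matches, at 211, 202 and 183 bases before the start site. The ANKRD37 window held 3, of which the pair in CACGTG overlap each other on opposite strands. CA9 held 1 match at 18 bases before the start site, ADM held 1 at 101 bases, and the EGLN3 window held 0. A promoter window was at hand for 34 of the 38 members. At least 1 window of the gene held the letters in 28 of these 34 members (82.4%), in 14 of the 17 enzymes (82.4%) and in 8 of 10 of the other HIF targets (80%). Over all genes of the table the share was 12945 of 27305 (47.4%), and over single windows it was 59.7% of members' windows and 43.2% of all windows. The 34 members had 62 windows, against 35116 windows for the 27305 genes. Members thus had more windows per gene, which by itself raises the share with at least 1 match. A match in these letters is a description of the sequence and not a bound site.

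In A549, most glycolytic enzymes fell with siRNA1, while glucose transporters rose. Of the 17 enzymes, 11 fell, 3 rose and 3 did not pass the test (edgeR's quasi-likelihood test, adjusted p under 0.05 over all genes), where 32.8% of all genes tested fell and 39.0% rose (71.7% in either direction). The median log2 fold change of the enzymes was -0.50, against 0.09 over all genes. Of the 21 other members, 11 rose and 5 fell, with a median of 0.32. Among them, 6 of the 13 other HIF targets rose and 2 fell, with a median of 0.19. That share of rises was near the 39.0% of all genes. On the deposited TPM, tested with limma, the median of all genes was 0.23, and 6 enzymes rose and 9 fell, while 14 other members rose and 1 fell. ALDOC, EGLN1, GAPDH, HIF1A, P4HA1 and PDK1 then lost their call. The share of all genes called on TPM is not given here, so those counts lack that background. In bulk RNA, fewer cells that express a gene and less RNA per cell cannot be told apart.

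With siRNA2, nearly the whole enzyme list fell in A549. Of the 17 enzymes 15 fell, PFKL rose and PGAM1 did not pass, where 28.4% of all genes fell and 32.5% rose (60.9% in either direction). The median of the enzymes was -0.52, against 0.04 over all genes. Among the 13 other HIF targets, 7 fell and 2 rose, with a median of -0.28.

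siRNA3 gave mixed directions in A549. Of the enzymes 8 fell and 4 rose, where 30.4% of all genes fell and 30.9% rose (61.3% in either direction), and their median was -0.17 against 0.0025 over all genes. Of the 21 other members 10 fell and 9 rose, with a median of -0.28, and both HIF alpha subunits fell. Without replicate 3 of siRNA3, all 31 members called in this comparison kept their call, and GAPDH gained one (-0.28 ± 0.07, edgeR adjusted p = 0.004), which made 9 enzymes lower. The 3 A549 comparisons share the same 3 control libraries, so their values are set side by side and were not counted as separate evidence.

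In MDA-MB-231, all 13 other HIF targets rose with siRNA1. Of the 21 other members 19 rose and 0 fell, where 27.5% of all genes rose and 27.8% fell (55.3% in either direction), with a median of 0.70 against 0.01 over all genes. The median of the 13 HIF targets was 1.02. The 17 enzymes did not move in a common direction, since 4 rose, 3 fell and 10 did not pass, with a median of 0.0061. On TPM with limma, 7 enzymes rose and 3 fell. The share of all genes called on that scale is not given here.

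**Figure D1:**
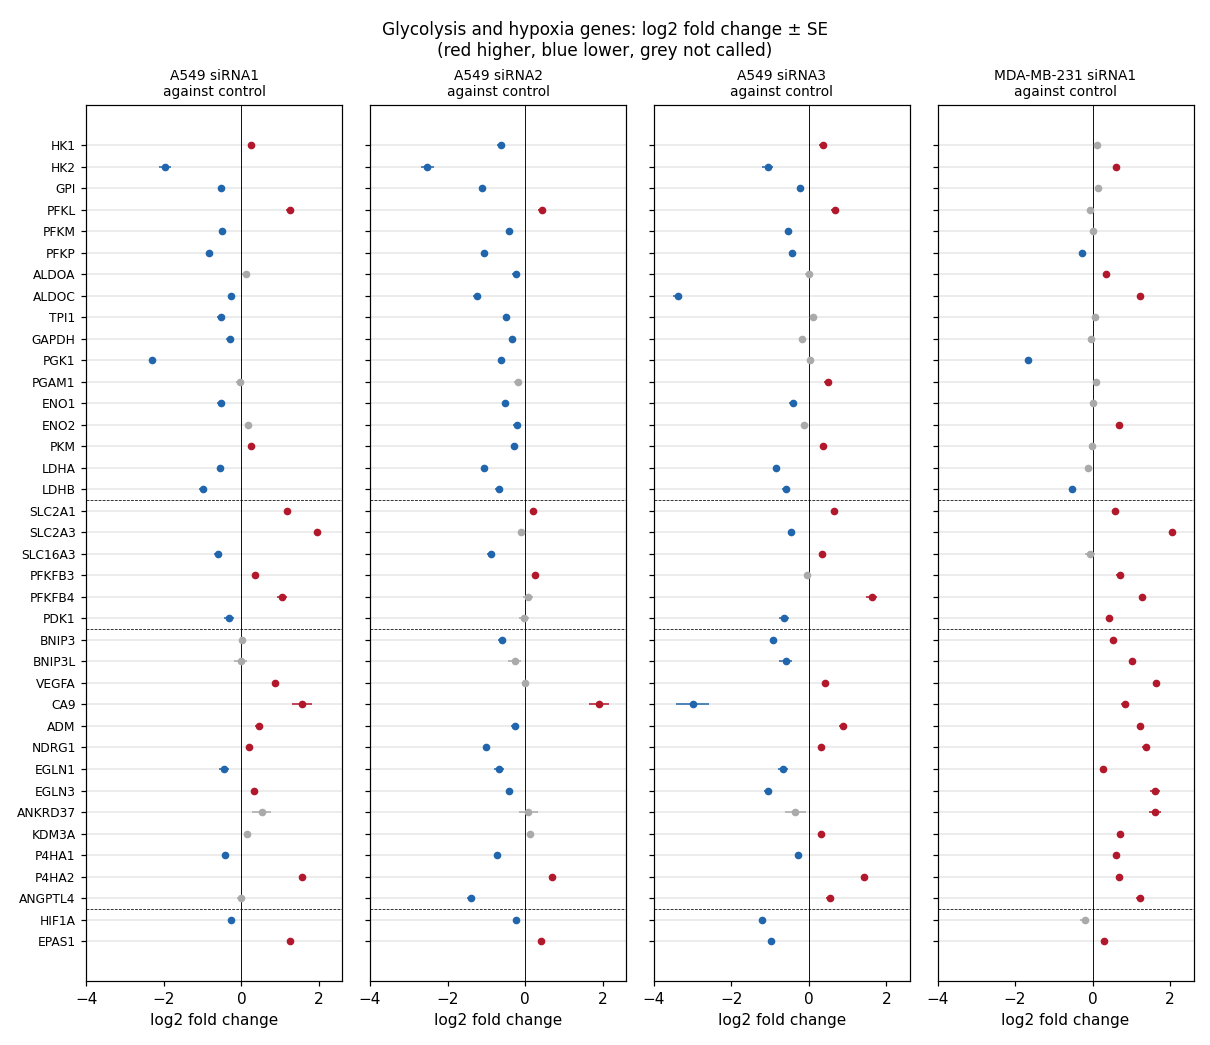
Log2 fold change (edgeR, siRNA over control) of the 38 members, grouped by role, in A549 with siRNA1, siRNA2 and siRNA3 and in MDA-MB-231 with siRNA1. All 13 other HIF targets were higher in MDA-MB-231, while in A549 15 of the 17 enzymes fell with siRNA2.

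Among the enzymes, PGK1, which makes ATP from bisphosphoglycerate, had the largest fall with siRNA1 in both lines. PGK1 had 152, 155 and 157 TPM in A549 siRNA1, 442, 449 and 459 TPM in siRNA2, 659, 647 and 646 TPM in siRNA3, and 646, 617 and 671 TPM in A549 control. The siRNA1 libraries lay far below every other A549 library, siRNA2 lay between, and siRNA3 overlapped control. The log2 fold change was -2.31 ± 0.08 (SE; edgeR adjusted p = 1.8e-11) with siRNA1, -0.61 ± 0.08 (adjusted p = 1.1e-05) with siRNA2 and 0.03 ± 0.07 (adjusted p = 0.74) with siRNA3. In MDA-MB-231, PGK1 had 283, 288 and 278 TPM with siRNA1 and 857, 860 and 852 TPM with control, a log2 fold change of -1.67 ± 0.05 (edgeR adjusted p = 1.5e-08). The difference between the fold changes, A549 minus MDA-MB-231, was -0.60 ± 0.07 on the log2 scale (edgeR interaction, adjusted p = 2.8e-06). Neighbouring steps moved far less: GAPDH, which acts just before PGK1, changed by -0.30 ± 0.09 in A549 siRNA1 and by -0.04 ± 0.05 in MDA-MB-231, the second of which did not pass the test.

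The hexokinases HK1 and HK2 trap glucose by phosphorylation. HK2 was scarce in A549, with 0.40, 0.44 and 0.47 TPM in siRNA1, 0.23, 0.31 and 0.26 TPM in siRNA2, 0.72, 0.77 and 0.56 TPM in siRNA3, and 1.32, 1.35 and 1.62 TPM in control. All 9 libraries with a BLM siRNA lay below all A549 control libraries, with log2 fold changes of -1.97 ± 0.15, -2.52 ± 0.16 and -1.06 ± 0.14 for siRNA1, siRNA2 and siRNA3 (edgeR adjusted p = 4.7e-08, 2.2e-08 and 2.1e-05). In MDA-MB-231, where HK2 was abundant, it went the other way, with 145, 162 and 151 TPM with siRNA1 and 94.4, 94.9 and 95.2 TPM with control (0.61 ± 0.06, edgeR adjusted p = 1.5e-05). The same difference for HK2 was -2.54 ± 0.13 on the log2 scale (edgeR interaction, adjusted p = 3.7e-10). HK1 had 85.2, 87.6 and 93.3 TPM in A549 siRNA1, 45.1, 41.1 and 42.6 TPM in siRNA2, 88.9, 86.3 and 64.2 TPM in siRNA3, and 62.3, 58.2 and 66.5 TPM in control. By edgeR, HK1 rose with siRNA1 (0.25 ± 0.08) and siRNA3 (0.35 ± 0.08) and fell with siRNA2 (-0.63 ± 0.08). Replicate 3 of siRNA3 lay within the range of control on TPM. The siRNA1 call of HK1 was lost without the filter on low counts, without siRNA1 replicate 3 and without control replicate 2. HK2 made up 0.490% ± 0.019 of summed HK1 and HK2 TPM in A549 siRNA1 and 2.24% ± 0.15 in A549 control, and 44.2% ± 1.6 with siRNA1 and 35.8% ± 0.5 with control in MDA-MB-231 (SD, n = 3 each).

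Phosphofructokinase, which commits sugar to glycolysis, has 3 isoenzyme genes, and they moved apart in A549. PFKL had 65.4, 57.2 and 69.1 TPM in A549 siRNA1, 32.3, 32.5 and 31.6 TPM in siRNA2, 41.0, 38.7 and 27.6 TPM in siRNA3, and 21.8, 20.8 and 24.4 TPM in control. Each library with a BLM siRNA lay above each control library, and PFKL rose by a log2 of 1.26 ± 0.10, 0.44 ± 0.10 and 0.68 ± 0.10 with siRNA1, siRNA2 and siRNA3 (edgeR adjusted p = 1.3e-07, 0.0025 and 7.4e-05). PFKP, the main isoenzyme by TPM, had 326, 315 and 324 TPM in A549 siRNA1 against 466, 474 and 518 TPM in control, and fell with all 3 siRNAs (-0.84 ± 0.08, -1.05 ± 0.08 and -0.44 ± 0.08). PFKM also fell with all 3 (-0.50 ± 0.07, -0.41 ± 0.07 and -0.53 ± 0.07). The PFKL share of summed phosphofructokinase TPM was 14.5% ± 1.0 in siRNA1, 9.53% ± 0.17 in siRNA2 and 7.87% ± 0.74 in siRNA3, against 3.90% ± 0.14 in A549 control (SD, n = 3 each). In MDA-MB-231, PFKL had 86.4, 99.6 and 90.9 TPM with siRNA1 and 97.7, 91.3 and 84.3 TPM with control, and the groups overlapped (-0.06 ± 0.08, edgeR adjusted p = 0.58). PFKP there fell slightly, to 218, 214 and 209 TPM with siRNA1, against 248, 237 and 250 TPM with control (-0.27 ± 0.05, edgeR adjusted p = 0.00089).

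The aldolases split fructose bisphosphate. ALDOC, the minor isoenzyme in these cells, had 14.1, 15.2 and 14.9 TPM in A549 siRNA1, 6.27, 7.01 and 6.61 TPM in siRNA2, 1.29, 1.69 and 1.24 TPM in siRNA3, and 15, 14.2 and 15.3 TPM in control. siRNA3 gave the lowest levels and siRNA2 intermediate ones, while the TPM of siRNA1 overlapped control. The log2 fold changes were -3.39 ± 0.12 for siRNA3 (edgeR adjusted p = 1.5e-10), -1.25 ± 0.10 for siRNA2 (adjusted p = 1.5e-07) and -0.26 ± 0.09 for siRNA1 (adjusted p = 0.019). The siRNA1 call was lost on TPM and without siRNA1 replicate 1. In MDA-MB-231, ALDOC rose to 44.3, 44.3 and 40.5 TPM with siRNA1, against 18.5, 18.1 and 16.2 TPM with control (1.22 ± 0.08, edgeR adjusted p = 1.8e-06). ALDOA, the main isoenzyme, had 1638, 1508 and 1692 TPM in A549 siRNA1, 1116, 1154 and 1095 TPM in siRNA2 and 1153, 1214 and 1408 TPM in control, and of these only the siRNA2 difference passed (-0.25 ± 0.10, edgeR adjusted p = 0.048), and it was lost on TPM and in 5 of the 6 fits that left out 1 library. In MDA-MB-231, ALDOA rose (0.33 ± 0.06). On TPM with limma, ALDOA was called higher with siRNA1 in both lines.

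The lactate dehydrogenase subunits both fell in A549 with every siRNA. LDHB had 1885, 1799 and 1821 TPM in A549 siRNA1, 2073, 2048 and 1994 TPM in siRNA2, 1889, 2031 and 2063 TPM in siRNA3, and 3134, 3065 and 3005 TPM in control. LDHA had 1884, 1980 and 1807 TPM in siRNA1, 1162, 1155 and 1239 TPM in siRNA2, 1279, 1263 and 1299 TPM in siRNA3, and 2359, 2216 and 2391 TPM in control. No library with a BLM siRNA overlapped control for either gene. The log2 fold change of LDHB was -0.99 ± 0.09 with siRNA1 (edgeR adjusted p = 5.4e-07), -0.68 ± 0.09 with siRNA2 and -0.60 ± 0.09 with siRNA3. That of LDHA was -0.55 ± 0.08, -1.06 ± 0.08 and -0.84 ± 0.08 in the same order of siRNAs. In MDA-MB-231, LDHB fell to 779, 769 and 794 TPM with siRNA1, against 1115, 1078 and 1049 TPM with control (-0.54 ± 0.05, edgeR adjusted p = 7.4e-06). LDHA there had 3765, 3651 and 3455 TPM with siRNA1 and 3732, 3851 and 3611 TPM with control, a difference that did not pass (-0.12 ± 0.05, edgeR adjusted p = 0.076). Summed lactate dehydrogenase TPM was 3725 ± 85 in siRNA1, 3224 ± 18 in siRNA2 and 3275 ± 99 in siRNA3, against 5389 ± 106 in A549 control (SD, n = 3 each).

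**Figure D2:**
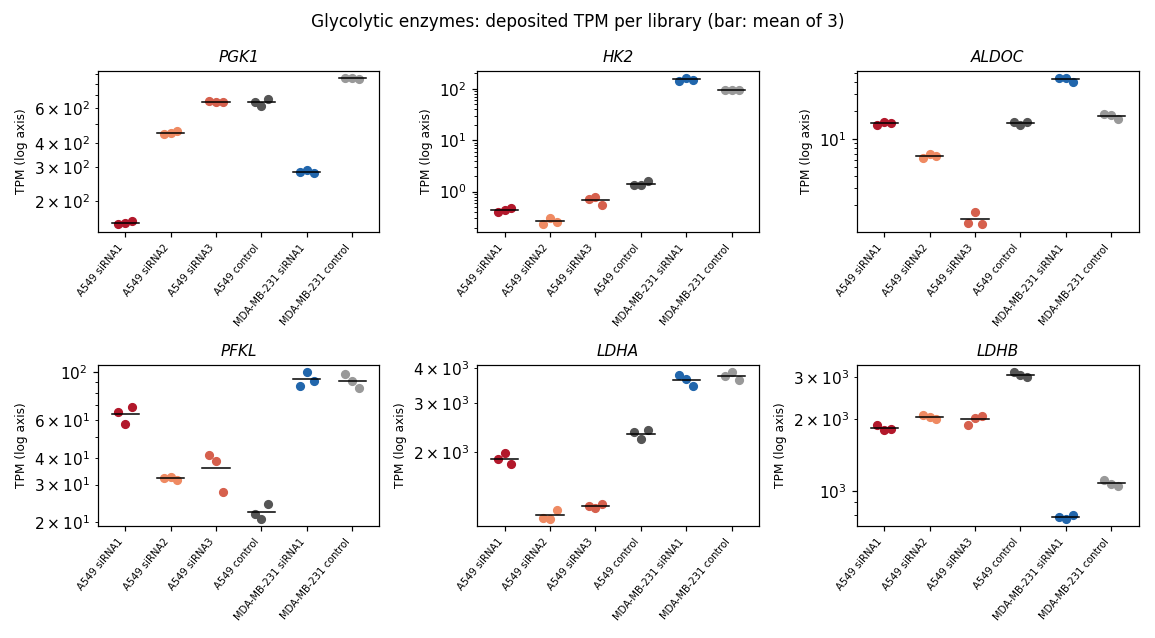
Deposited TPM (log axis) of PGK1, HK2, ALDOC, PFKL, LDHA and LDHB in each of the 18 libraries, with a bar at the mean of each group of 3. PGK1 was lower with siRNA1 in both lines, whereas HK2 was lower with siRNA1 in A549 and higher in MDA-MB-231.

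Among the other enzymes, GPI, which isomerises glucose 6-phosphate, had 212, 209 and 208 TPM in A549 siRNA2 against 415, 397 and 467 TPM in control. GPI fell with siRNA2 (-1.12 ± 0.08, edgeR adjusted p = 7.5e-08), with siRNA1 (-0.54 ± 0.08) and with siRNA3 (-0.23 ± 0.08), the last of which was lost in 3 of the 6 fits that left out 1 library. PKM, the pyruvate kinase gene, had 3437, 3264 and 3609 TPM in A549 siRNA1, 2215, 2121 and 2130 TPM in siRNA2, 3353, 3176 and 2835 TPM in siRNA3, and 2396, 2264 and 2685 TPM in control. PKM was thus above control with siRNA1 and siRNA3 and below it with siRNA2, with log2 fold changes of 0.24 ± 0.07, 0.36 ± 0.07 and -0.29 ± 0.07 (edgeR adjusted p = 0.01, 0.0009 and 0.0039 in the order siRNA1, siRNA3, siRNA2). The siRNA1 call was lost without the filter on low counts and without siRNA1 replicate 3, and the siRNA2 call on TPM. PGAM1, the phosphoglycerate mutase, rose with siRNA3, with 836, 859 and 907 TPM against 602, 600 and 664 TPM in control (0.50 ± 0.10, edgeR adjusted p = 0.00093). Its counts were not whole numbers in all 18 libraries, as happens where reads are shared with similar sequences, so its level is less certain. ENO2, the minor enolase, rose in MDA-MB-231 to 231, 232 and 232 TPM with siRNA1, against 141, 139 and 135 TPM with control (0.67 ± 0.05, edgeR adjusted p = 3.0e-06). In A549, ENO2 had 72.1, 74.7 and 68.4 TPM with siRNA2 and 79.4, 74.7 and 81.4 TPM with control (-0.22 ± 0.08, edgeR adjusted p = 0.03). That call was lost under 7 of 12 alternatives, among them TPM and the replicate block. TPI1, GAPDH and ENO1 fell with siRNA1 and siRNA2 in A549, with log2 fold changes between -0.54 and -0.30, and none of these 3 passed in MDA-MB-231.

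Summed over all 17 enzymes, the level was 24343 ± 1093 TPM in A549 siRNA1, 20317 ± 493 TPM in siRNA2 and 23073 ± 77.2 TPM in siRNA3, against 26413 ± 1238 TPM in A549 control (SD, n = 3 each). In MDA-MB-231 it was 24046 ± 725 TPM with siRNA1 and 23647 ± 861 TPM with control. GAPDH alone made up 39.8% of the sum in A549 siRNA1 and 37.97% in A549 control.

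Glucose transporters rose with siRNA1 in both lines. SLC2A3, a high-affinity glucose transporter, had 74.7, 85.1 and 73.3 TPM in A549 siRNA1, 16.7, 16.4 and 16.9 TPM in siRNA2, 11.96, 14.6 and 10.1 TPM in siRNA3, and 17.9, 16.1 and 16.3 TPM in A549 control. In MDA-MB-231 it had 83.6, 90.8 and 86.0 TPM with siRNA1 and 18.9, 20.8 and 20.6 TPM with control. The siRNA1 libraries of both lines reached similar levels from similar controls. The log2 fold changes were 1.95 ± 0.09 in A549 (edgeR adjusted p = 4.4e-10) and 2.04 ± 0.07 in MDA-MB-231 (adjusted p = 2.6e-08), and their difference was -0.04 ± 0.10 (edgeR interaction, adjusted p = 0.78). SLC2A3 did not pass with siRNA2 (-0.11 ± 0.09) and fell with siRNA3 (-0.45 ± 0.09). Its counts were not whole in 16 of 18 libraries. SLC2A1, the basal glucose transporter, had 154, 147 and 161 TPM in A549 siRNA1 against 55.6, 55.0 and 61.6 TPM in control (1.17 ± 0.08, edgeR adjusted p = 2.2e-08), and 537, 564 and 500 TPM with siRNA1 against 350, 346 and 330 TPM with control in MDA-MB-231 (0.57 ± 0.06, adjusted p = 4.5e-05). It also rose with siRNA3 (0.65 ± 0.08) and, near the threshold, with siRNA2 (0.20 ± 0.08, edgeR adjusted p = 0.045).

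SLC16A3, the lactate exporter, moved in opposite directions between siRNAs. It had 77.2, 67.96 and 85.6 TPM in A549 siRNA1, 57.4, 57.0 and 58.0 TPM in siRNA2, 132, 130 and 114 TPM in siRNA3, and 94.9, 91.6 and 111 TPM in control. The log2 fold changes were -0.61 ± 0.10 (edgeR adjusted p = 7.4e-05), -0.87 ± 0.10 (4.9e-06) and 0.35 ± 0.10 (0.0073) for siRNA1, siRNA2 and siRNA3. In MDA-MB-231 the groups overlapped, at 434, 529 and 470 TPM with siRNA1 and 545, 503 and 376 TPM with control. The bifunctional enzymes PFKFB3 and PFKFB4 set the level of fructose 2,6-bisphosphate, an activator of phosphofructokinase. PFKFB4 had 10.5, 8.77 and 10.9 TPM in A549 siRNA1, 14.0, 12.4 and 11.3 TPM in siRNA3 and 4.72, 3.27 and 4.22 TPM in control, and rose with siRNA3 (1.61 ± 0.13, edgeR adjusted p = 2.7e-07) and siRNA1 (1.05 ± 0.13). With siRNA2 it had 5.11, 4.45 and 4.19 TPM and did not pass (0.07 ± 0.14). In MDA-MB-231, PFKFB4 rose (1.28 ± 0.09), as did PFKFB3 (0.70 ± 0.09). PDK1, the kinase that shuts off pyruvate dehydrogenase, had 6.33, 8.50 and 6.13 TPM in A549 siRNA1, 7.14, 6.62 and 6.92 TPM in A549 control, 35.3, 34.2 and 32.7 TPM in MDA-MB-231 siRNA1 and 22.9, 24.3 and 30.1 TPM in MDA-MB-231 control. The A549 siRNA1 difference of -0.31 ± 0.13 (edgeR adjusted p = 0.042) was lost on TPM and in 5 of the 6 fits that left out 1 library, whereas the rise in MDA-MB-231 was 0.43 ± 0.08 (adjusted p = 0.0017). With siRNA3, PDK1 had 4.98, 5.01 and 3.51 TPM, below A549 control (-0.65 ± 0.13, edgeR adjusted p = 0.0007). That call was kept under every alternative, and PDK1 did not pass with siRNA2 (-0.03 ± 0.13).

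Of the 13 other HIF targets, VEGFA, ANKRD37 and EGLN3 had the highest log2 fold changes in MDA-MB-231, which lay within each other's errors. VEGFA, the angiogenic growth factor, had 815, 752 and 765 TPM in MDA-MB-231 with siRNA1 and 219, 239 and 269 TPM with control, a log2 fold change of 1.62 ± 0.05 (edgeR adjusted p = 2.6e-08). In A549 it had 34.0, 37.5 and 35.5 TPM in siRNA1, 17.6, 17.8 and 18.9 TPM in siRNA2, 24.2, 22.8 and 21.02 TPM in siRNA3, and 17.03, 18.2 and 16.5 TPM in control. VEGFA rose in A549 with siRNA1 (0.86 ± 0.07, edgeR adjusted p = 1.3e-07) and siRNA3 (0.41 ± 0.07), while siRNA2 libraries overlapped control (adjusted p = 0.97). ANKRD37, an ankyrin repeat gene known as a HIF1A target, had 30.1, 35.8 and 26.2 TPM with siRNA1 and 8.97, 10.8 and 9.11 TPM with control in MDA-MB-231 (1.61 ± 0.14, edgeR adjusted p = 1.2e-05). In A549 it did not pass with any siRNA by edgeR and stayed between 1.36 and 3.97 TPM. Its A549 counts were low, at 17.7 to 58.2 per library, so a change there could be missed. On TPM with limma, ANKRD37 was called higher in A549 siRNA1. Its counts were not whole in any of the 18 libraries. EGLN3, the prolyl hydroxylase that HIF itself induces, had 98.5, 115 and 82.2 TPM with siRNA1 and 29.1, 32.6 and 30.0 TPM with control in MDA-MB-231 (1.61 ± 0.12, edgeR adjusted p = 3.9e-06). In A549, EGLN3 had 24.1, 26.3 and 24.4 TPM in siRNA1, 14.4, 13.1 and 13.5 TPM in siRNA2, 8.53, 7.34 and 8.32 TPM in siRNA3, and 18.0, 15.3 and 17.1 TPM in control. It rose with siRNA1 (0.32 ± 0.09) and fell with siRNA2 (-0.41 ± 0.09) and siRNA3 (-1.07 ± 0.09, edgeR adjusted p = 4.2e-07).

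NDRG1, a stress-induced differentiation gene, was the most abundant of the 13 targets in MDA-MB-231. It had 1291, 1544 and 1228 TPM there with siRNA1 and 476, 550 and 468 TPM with control (1.37 ± 0.10, edgeR adjusted p = 3.5e-06). In A549 it had 64.7, 63.8 and 63.8 TPM in siRNA1, 25.0, 26.1 and 24.1 TPM in siRNA2, 61.4, 60.9 and 53.4 TPM in siRNA3, and 47.4, 44.7 and 49.5 TPM in control. siRNA2 thus lay below control (-1.01 ± 0.07, edgeR adjusted p = 6.6e-08) and siRNA3 above it (0.32 ± 0.07), and the siRNA1 difference of 0.19 ± 0.07 (adjusted p = 0.027) was lost under several alternatives. ANGPTL4, a secreted inhibitor of lipoprotein lipase, showed the same split in A549, with 7.57, 7.15 and 6.82 TPM in siRNA2, 27.7, 27.2 and 23.1 TPM in siRNA3 and 18.8, 17.3 and 17.8 TPM in control. Its log2 fold changes were -1.41 ± 0.10 with siRNA2 (edgeR adjusted p = 9.5e-08) and 0.54 ± 0.10 with siRNA3 (adjusted p = 0.00025), and it did not pass with siRNA1 (-0.01 ± 0.10). In MDA-MB-231 it rose with siRNA1 (1.21 ± 0.10). ADM, the vasodilator peptide adrenomedullin, had 50.9, 48.4 and 48.7 TPM in A549 siRNA3 against 25.9, 29.2 and 27.0 TPM in control (0.87 ± 0.09, edgeR adjusted p = 2.5e-06), rose with siRNA1 (0.45 ± 0.09) and fell with siRNA2 (-0.28 ± 0.09). In MDA-MB-231 it rose (1.23 ± 0.08).

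CA9, a membrane carbonic anhydrase used as a hypoxia marker, had the widest spread between siRNAs in A549. It had 4.53, 3.66 and 6.32 TPM in siRNA1, 5.36, 4.87 and 6.38 TPM in siRNA2, 0.12, 0.18 and 0.20 TPM in siRNA3, and 1.94, 0.88 and 1.33 TPM in A549 control. The siRNA3 values rest on 3, 4 and 5 counts per library, against 56, 26 and 39 in control, and the groups did not overlap. The log2 fold changes were 1.56 ± 0.26 (edgeR adjusted p = 0.00011), 1.91 ± 0.26 (2.5e-05) and -3.0 ± 0.43 (4.5e-05) for siRNA1, siRNA2 and siRNA3. In MDA-MB-231, CA9 had 32.7, 40.6 and 35.5 TPM with siRNA1 and 18.5, 20.8 and 18.9 TPM with control (0.83 ± 0.10, edgeR adjusted p = 7.6e-05).

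The collagen prolyl hydroxylase subunits P4HA1 and P4HA2 differed from each other in A549. P4HA2 had 139, 135 and 143 TPM in siRNA1, 69.6, 66.5 and 64.7 TPM in siRNA2, 106, 110 and 94.1 TPM in siRNA3, and 39.8, 37.95 and 39.3 TPM in control. It rose with all 3 siRNAs, by 1.57 ± 0.07, 0.68 ± 0.07 and 1.41 ± 0.07 on the log2 scale (edgeR adjusted p = 4.6e-10, 3.0e-06 and 4.1e-09), and in MDA-MB-231 (0.67 ± 0.06). Its counts were not whole in any of the 18 libraries. P4HA1 fell with all 3 siRNAs in A549 (-0.42 ± 0.08, -0.73 ± 0.08 and -0.28 ± 0.08), with 42.0, 48.4 and 39.0 TPM in siRNA1 and 51.0, 46.5 and 46.7 TPM in control, and the siRNA1 call was lost on TPM. In MDA-MB-231, P4HA1 rose to 237, 247 and 235 TPM with siRNA1, against 144, 149 and 154 TPM with control (0.61 ± 0.05, edgeR adjusted p = 5.1e-06). EGLN1, the main oxygen sensor among the HIF prolyl hydroxylases, had 29.5, 40.0 and 28.4 TPM in A549 siRNA1 and 37.9, 35.2 and 38.9 TPM in control, and 31.7, 31.4 and 29.4 TPM with siRNA1 and 23.3, 21.8 and 28.3 TPM with control in MDA-MB-231. Replicate 2 of A549 siRNA1 lay above all A549 control libraries on TPM, and the fall of -0.46 ± 0.13 (edgeR adjusted p = 0.0066) was lost on that scale. EGLN1 fell further with siRNA2 (-0.67 ± 0.13, edgeR adjusted p = 0.00056) and siRNA3 (-0.68 ± 0.13, adjusted p = 0.00053). Both groups lay below A549 control on TPM, and both calls were kept under every alternative. In MDA-MB-231 the rise was 0.26 ± 0.08 (adjusted p = 0.015), and it was lost in 4 of the 6 fits that left out 1 library.

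The mitophagy receptors BNIP3 and BNIP3L and the histone demethylase KDM3A complete the target list. All 3 rose in MDA-MB-231, by 0.54 ± 0.08, 1.02 ± 0.08 and 0.70 ± 0.06 on the log2 scale, and none passed in A549 siRNA1 by edgeR. On TPM with limma, BNIP3 and KDM3A were called higher in A549 siRNA1 as well. BNIP3L had 285, 300 and 274 TPM with siRNA1 and 125, 120 and 156 TPM with control in MDA-MB-231. With siRNA3 in A549, BNIP3 (-0.92 ± 0.10) and BNIP3L (-0.60 ± 0.17) fell and KDM3A rose (0.32 ± 0.07). Summed over the 13 targets, the level was 4025 ± 255 TPM with siRNA1 and 1744 ± 84.6 TPM with control in MDA-MB-231, and 668 ± 47.0 TPM in siRNA1, 392 ± 25.1 TPM in siRNA2 and 474 ± 37.9 TPM in siRNA3, against 462 ± 12.5 TPM in A549 control (SD, n = 3 each).

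**Figure D3:**
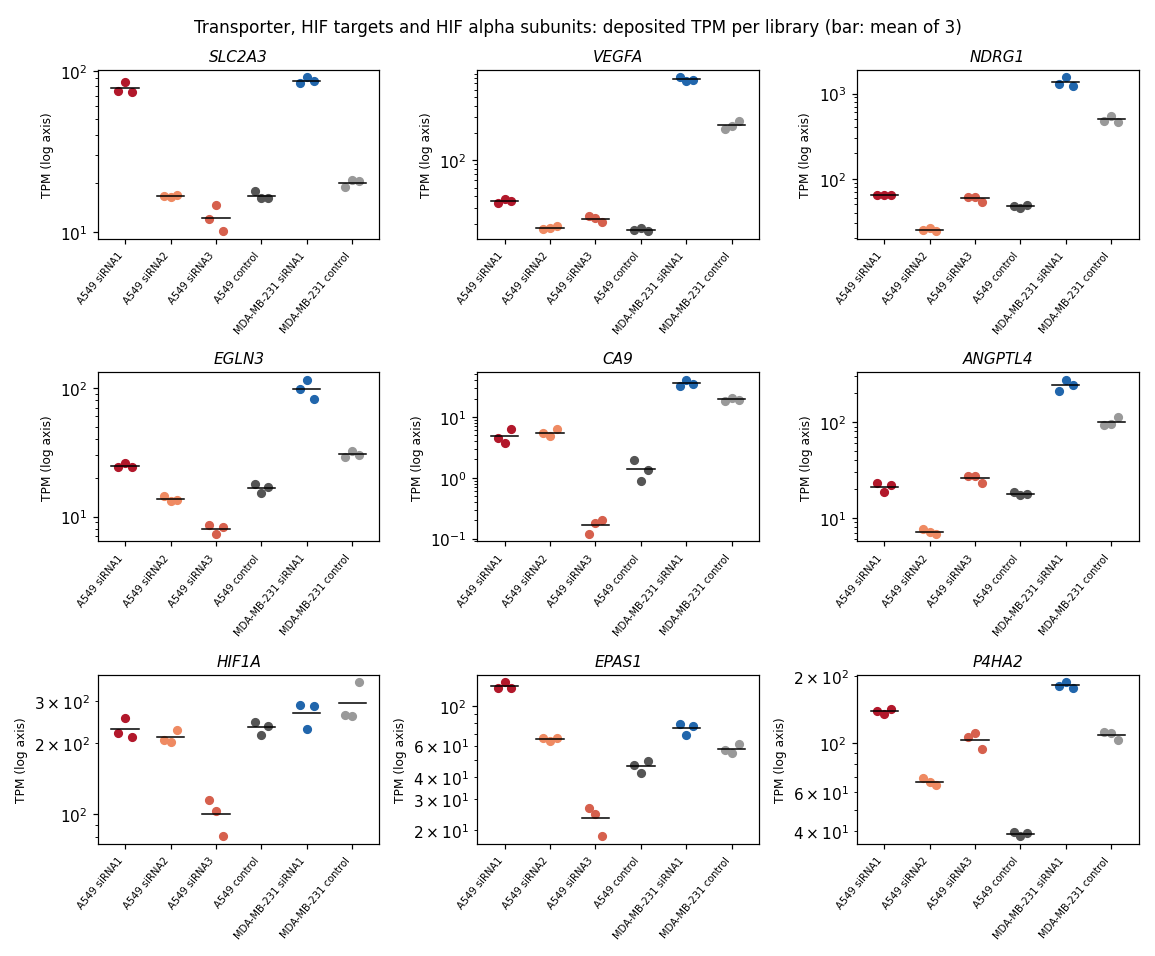
Deposited TPM (log axis) of selected transporters, HIF targets and HIF alpha subunits in each of the 18 libraries, with a bar at the mean of each group of 3. SLC2A3 was high in the siRNA1 libraries of both lines, and CA9 was lowest in A549 siRNA3, at 0.12 to 0.20 TPM.

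By edgeR, the HIF alpha genes themselves moved apart in A549 with siRNA1 and siRNA2 and fell together with siRNA3. HIF1A had 219, 255 and 212 TPM in A549 siRNA1, 205, 202 and 226 TPM in siRNA2, 115, 104 and 80.9 TPM in siRNA3, and 244, 215 and 235 TPM in control. Only the siRNA3 libraries lay clear of control on TPM, and HIF1A fell there (-1.21 ± 0.08, edgeR adjusted p = 3.3e-08). The falls with siRNA1 (-0.28 ± 0.08) and siRNA2 (-0.23 ± 0.08) were lost on TPM. Its counts were not whole in 17 of 18 libraries. EPAS1, which encodes HIF-2 alpha, had 127, 136 and 127 TPM in A549 siRNA1, 65.9, 63.7 and 66.2 TPM in siRNA2, 26.7, 24.8 and 18.5 TPM in siRNA3, and 46.5, 41.9 and 49.1 TPM in control. The 4 groups did not overlap, and the log2 fold changes were 1.25 ± 0.08, 0.41 ± 0.08 and -0.98 ± 0.08 for siRNA1, siRNA2 and siRNA3 (edgeR adjusted p = 6.9e-09, 0.00037 and 1.8e-07). EPAS1 made up 36.3% ± 1.4 of summed HIF alpha TPM in A549 siRNA1 and 16.5% ± 0.7 in control (SD, n = 3 each). In MDA-MB-231, EPAS1 had 79.6, 68.4 and 76.8 TPM with siRNA1 and 56.4, 54.7 and 61.6 TPM with control (0.30 ± 0.06, edgeR adjusted p = 0.0014). HIF1A there had 289, 227 and 284 TPM with siRNA1 and 262, 258 and 358 TPM with control, and did not pass (-0.21 ± 0.11, edgeR adjusted p = 0.14).

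Other genes of these pathways, from lists of 29 genes of glycolysis and its branches, 10 of oxygen sensing and 21 further HIF targets, were counted for comparison. Among all genes tested, 27.5% were higher and 27.8% lower in MDA-MB-231 with siRNA1, 39.0% and 32.8% in A549 siRNA1, 32.5% and 28.4% in siRNA2, and 30.9% and 30.4% in siRNA3. Of the further HIF targets, 16 rose and 4 fell in MDA-MB-231 with siRNA1 (median 0.55), against 8 and 9 in A549 siRNA1 (median -0.26), 7 and 9 in siRNA2 (-0.18) and 4 and 9 in siRNA3 (-0.02). BHLHE40, a circadian repressor, rose in MDA-MB-231 (1.3 ± 0.05), as did TMEM45A (1.27 ± 0.14), while LOX, the lysyl oxidase (-1.20 ± 0.09), and CA12, another carbonic anhydrase (-0.79 ± 0.06), fell. In A549 siRNA1, KDM4B (2.32 ± 0.14) and BHLHE40 (1.25 ± 0.07) rose, and STC2 (-1.91 ± 0.08) and JMJD6 (-0.96 ± 0.10) fell. HILPDA, a lipid droplet protein, fell with siRNA2 (-0.92 ± 0.09) and siRNA3 (-1.98 ± 0.09). Among the 23 tested genes of glycolysis and its branches, 9 rose and 9 fell in A549 siRNA1, 4 and 9 in siRNA2, 4 and 14 in siRNA3, and 8 and 6 in MDA-MB-231. ADPGK, the ADP-dependent glucokinase, fell in A549 siRNA1 (-1.83 ± 0.09) and in MDA-MB-231 (-1.03 ± 0.07), TIGAR, a p53 target that lowers fructose 2,6-bisphosphate, rose in A549 siRNA1 (1.25 ± 0.09), and PDK4 fell in siRNA3 (-2.39 ± 0.11). Of the 9 tested oxygen sensing genes, 3 rose and 3 fell in A549 siRNA1 and likewise in MDA-MB-231, close to the shares of all genes. CUL2, the scaffold of the VHL ligase, fell in A549 siRNA1 (-1.62 ± 0.07) and in MDA-MB-231 (-0.75 ± 0.07), where VHL rose (0.49 ± 0.06).

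The same siRNA name was used in both lines, which allowed the siRNA1 effects to be compared directly. Of the 38 members, 11 rose in both lines (SLC2A1, SLC2A3, PFKFB3, PFKFB4, VEGFA, CA9, ADM, NDRG1, EGLN3, P4HA2 and EPAS1) and 3 fell in both (PFKP, PGK1 and LDHB). A further 5 fell in A549 and rose in MDA-MB-231, namely HK2, ALDOC, PDK1, EGLN1 and P4HA1, and 0 went the opposite way. Of the 14300 genes tested in both lines, 15.1% were higher in both, 16.1% lower in both, 4.99% lower in A549 and higher in MDA-MB-231, and 6.52% the opposite way. On TPM with limma, HK2 and GPI were the members lower in A549 and higher in MDA-MB-231, and ALDOC, PDK1, EGLN1 and P4HA1 were no longer called lower in A549. On that scale 18 members were higher in both lines, where 21.2% of genes were, and 3 were lower in both, where 10.8% were. HK1, ALDOA, PGAM1, ENO2, BNIP3, ANKRD37 and KDM3A joined the 11 named above. By edgeR, PGAM1 passed in neither line. In the test of the difference itself (edgeR interaction), 25 members were lower in A549 relative to MDA-MB-231 and 7 higher, where 27.0% of all genes tested were lower and 30.8% higher (57.8% in either direction). The median difference was -0.48 over the 38 members, against 0.07 over all genes. Of the 13 other HIF targets, 11 had a lower effect in A549, and only CA9 and P4HA2 a higher one. The CA9 difference (0.77 ± 0.30, adjusted p = 0.036) was lost in 6 of the 12 fits that left out 1 library. The largest differences after HK2 were those of ALDOC (-1.44 ± 0.11), PFKL (1.36 ± 0.14), EGLN3 (-1.24 ± 0.15), ANGPTL4 (-1.18 ± 0.15) and NDRG1 (-1.14 ± 0.13), all with adjusted p under the threshold.

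**Figure D4:**
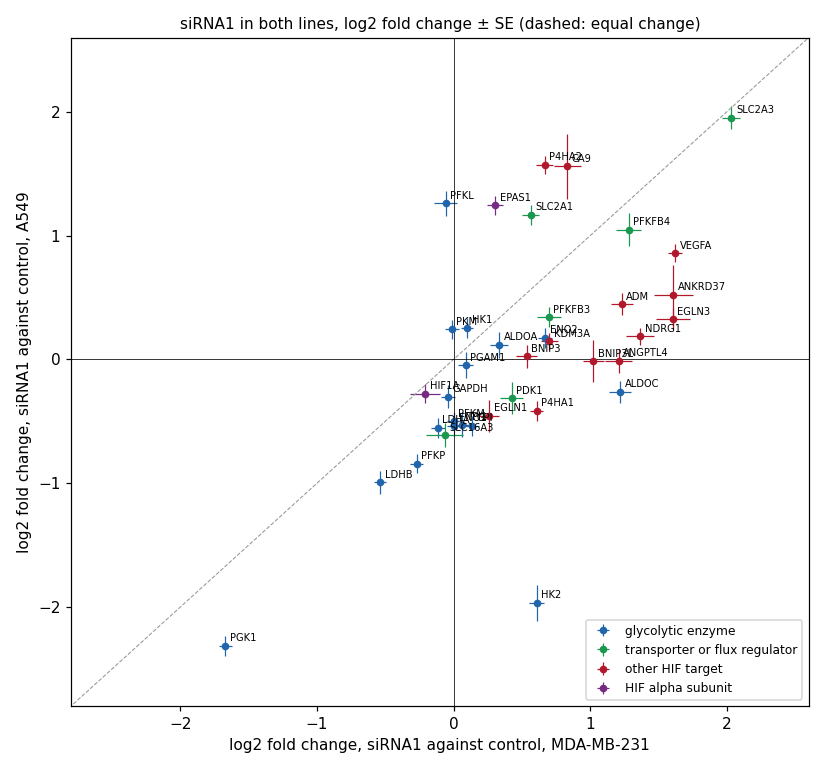
Log2 fold change (edgeR) of the 38 members with siRNA1 against control in A549 and in MDA-MB-231, 1 point a member. SLC2A3 was high in both lines, PGK1 low in both, and HK2 low in A549 and high in MDA-MB-231.

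The A549 siRNAs were also compared with each other. With siRNA1 against siRNA2, 23 members were higher and 2 lower (PGK1 and LDHB), where 28.6% of all genes tested were higher and 27.4% lower (56.0% in either direction). The largest differences in favour of siRNA1 were SLC2A3 (2.06 ± 0.09), ANGPTL4 (1.40 ± 0.10) and NDRG1 (1.19 ± 0.07), and PGK1 was lower (-1.70 ± 0.08, edgeR adjusted p = 6.4e-10). With siRNA1 against siRNA3, 16 were higher and 12 lower, against backgrounds of 34.4% and 32.3% (66.6% in either direction). On TPM with limma, where the median of all genes was 0.21, the split was 22 and 8. The shares of all genes on that scale are not given here, and the edgeR shares are not its background. CA9 (4.56 ± 0.38), ALDOC (3.12 ± 0.12) and EPAS1 (2.23 ± 0.08) were higher with siRNA1 than with siRNA3, and PGK1 was lower (-2.35 ± 0.08, edgeR adjusted p = 2.6e-11). With siRNA2 against siRNA3, 9 were higher and 19 lower, against 30.1% and 28.9% (59.0% in either direction). CA9 (4.91 ± 0.38) and ALDOC (2.14 ± 0.12) were higher with siRNA2, and ANGPTL4 (-1.95 ± 0.10), PFKFB4 (-1.54 ± 0.13) and NDRG1 (-1.33 ± 0.07) were lower with siRNA2 than with siRNA3.

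The lines differed in these genes before any BLM siRNA. In A549 control against MDA-MB-231 control, 12 of the 13 other HIF targets were lower in A549 and EGLN1 was higher, where 40.9% of all genes tested were lower and 40.1% higher (81.0% in either direction), and their median was -1.37 against -0.0044 over all genes. Control VEGFA was 17.03, 18.2 and 16.5 TPM in A549 against 219, 239 and 269 TPM in MDA-MB-231 (-3.67 ± 0.07, edgeR adjusted p = 1.9e-16), and HK2 showed the largest gap (-5.79 ± 0.09). The 17 enzymes had no common direction, with 7 higher and 7 lower in A549 and a median of 0.07. In both controls GAPDH ranked first by mean TPM. LDHB ranked second in A549 control (3068 ± 65 TPM) and seventh in MDA-MB-231 control (1081 ± 33 TPM), while LDHA had 2322 ± 93 and 3731 ± 120 TPM (SD, n = 3 each). In A549 control LDHB and ENO1 (2923 ± 184 TPM) did not differ beyond their spread, nor did PKM (2448 ± 216 TPM) and LDHA. At the low end of A549 control stood ANKRD37, HK2 and CA9, with means of 1.98 ± 0.66, 1.43 ± 0.17 and 1.38 ± 0.53 TPM, which also overlapped in their spread.

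**Figure D5:**
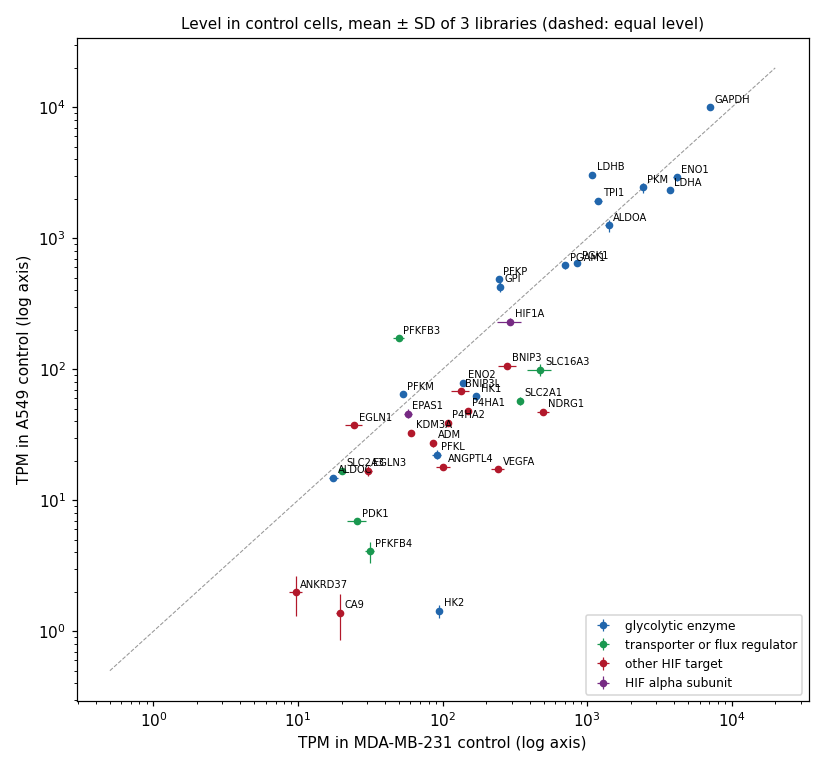
Mean deposited TPM (log axis) of the 38 members in A549 control and MDA-MB-231 control, with the spread of the 3 libraries of each group. GAPDH is highest in both lines, and HK2 averages 1.43 TPM in A549 control and 94.8 TPM in MDA-MB-231 control.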

How the data were processed

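RNA was sequenced from 18 libraries (A549 and MDA-MB-231, 6 groups of 3). Per the labels, libraries were made with a stranded total RNA kit after rRNA depletion. Per the submitters' processing notes, genes were quantified with RSEM on hg19. The sources used here do not give its version, the aligner or the annotation. Per the file headers, the authors' deposited tables hold an expected count and a TPM per gene symbol. Of the estimated counts, 10.2% to 11.8% were not whole, which occurs where reads are shared between genes, and they were rounded. Depth was 30143047 to 40328208 estimated counts per library.

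The members and all gene lists were chosen with earlier results of these data known. Counts were tested with edgeR 4.0.16 (R 4.3.3; TMM scaling, filterByExpr with a minimum count of 10 and a minimum total of 15, quasi-likelihood F test), fitted over all genes with Benjamini-Hochberg adjusted p under 0.05 as the call. The 12 A549 libraries, the 6 MDA-MB-231 libraries and, for the comparison of siRNA1 between lines and of the controls, the 12 libraries of those groups each had a fit. SE is the absolute log2 fold change divided by the square root of F. The pipeline was tested on simulated data. Alternatives were DESeq2 1.42.0 size factors and its Wald test, no filter, limma 3.58.1 on log2(TPM + 1), a replicate block, only the 2 groups compared, and leaving out each library. Library values are given, per comparison with control, for the called members with the 3 highest and 3 lowest log2 fold changes among the enzymes and among the other members, and for members called in opposite directions. Other pathway genes named are from among the 2 highest and 2 lowest called fold changes of each list and comparison, with an average log2 CPM of at least 1. Replicate numbers were not treated as pairs: of 21 same-numbered pairs, 4 deviated together with a correlation over 0.1 (range -0.553 to 0.312). Pairs with different numbers reached 0.652 (A549 siRNA1 replicate 2 with siRNA2 replicate 3). Some libraries of different groups thus deviated together in a way that the numbers do not capture, and its source was not tested. No library was a duplicate of another of its own group within sampling noise, and pairs from different groups were not checked in this way.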

Additional observations from a re-analysis of the deposited data

Results flagged for a closer look

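The effect of siRNA1 differed between A549 and MDA-MB-231 for 32 of the 38 members, by a direct test of the difference (edgeR interaction, adjusted p under 0.05), where 57.8% of all genes tested passed the same test. Values are log2 differences, A549 effect minus MDA-MB-231 effect.

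Among the enzymes the difference was positive for PFKL (1.36), PKM (0.30) and HK1 (0.20). It was negative for HK2 (-2.54), ALDOC (-1.44), GPI (-0.63), PGK1 (-0.60), TPI1 (-0.54), PFKP (-0.53), ENO1 (-0.50), PFKM (-0.46), ENO2 (-0.45), LDHB (-0.41) and LDHA (-0.39). The HK1 difference lay at the threshold and was lost under 13 of 17 alternatives.

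Among transporters and flux regulators it was 0.65 for SLC2A1, -0.69 for PDK1, -0.50 for SLC16A3 and -0.31 for PFKFB3. For the alpha subunit EPAS1 it was 0.99.

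Among the other HIF targets it was positive for P4HA2 (0.95) and CA9 (0.77). It was negative for EGLN3 (-1.24), ANGPTL4 (-1.18), NDRG1 (-1.14), ANKRD37 (-1.04), BNIP3L (-0.99), P4HA1 (-0.98), ADM (-0.74), VEGFA (-0.72), EGLN1 (-0.67), KDM3A (-0.51) and BNIP3 (-0.47).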

How the results depend on the processing

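Over all 117 called member results against control, 1310 of 1378 recalculations kept the call. Calls were lost under at least 1 alternative for 18 results, namely HK1, ALDOC, GAPDH, PKM, PDK1, NDRG1, EGLN1, P4HA1 and HIF1A in A549 siRNA1, ALDOA, ENO2, PKM, SLC2A1, PFKFB3, ADM and HIF1A in siRNA2, GPI in siRNA3 and EGLN1 in MDA-MB-231. NDRG1 in A549 siRNA1 lost its call under 9 of 12 and SLC2A1 in siRNA2 under 8 of 12. Counts that moved by over 1.5 times were few. Enzymes higher in A549 siRNA1 (3) became 1 without the filter and 6 on TPM, and ranged from 1 to 4 when 1 library was left out, with 1 without siRNA1 replicate 3. Other members lower there (5) became 1 on TPM. Members higher with siRNA1 in both lines (11) became 18 on TPM, and those lower in A549 and higher in MDA-MB-231 (5) became 2. Other members higher in A549 siRNA2 (5) became 3 without the filter, and ranged from 3 to 5, with 3 without siRNA2 replicate 1, siRNA2 replicate 2 or control replicate 2. In MDA-MB-231, enzymes higher (4) became 7 on TPM, enzymes lower (3) ranged from 3 to 5 and other members lower (0) from 0 to 1, with 5 and 1 without control replicate 3. Members with a higher siRNA1 effect in A549 than in MDA-MB-231 (7) ranged from 4 to 7.

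With the replicate block, other members lower in MDA-MB-231 became 1. The block kept 29 of 30 called members in A549 siRNA1 (NDRG1 lost), 27 of 30 in siRNA2 (ALDOA, ENO2 and SLC2A1 lost), 31 of 31 in siRNA3, 26 of 26 in MDA-MB-231 and 29 of 32 in the comparison of the lines (CA9, HK1 and SLC16A3 lost). The cause of these changes was not tested. On TPM the median of all genes was 0.23 in A549 siRNA1 and 0.07 in MDA-MB-231. Shares of all genes called on that scale are given above only for the counts in both lines. Depth limits CA9, HK2 and ANKRD37 in A549, and ALDOC in A549 siRNA3, which had 34 to 40 counts per library.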
